A study of Rattus norvegicus with 56 samples.

Results

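Respiratory complexes III and IV and ATP synthase were followed through 41 nuclear genes in cultures of rat hippocampal neurons that had received repetitive transcranial magnetic stimulation (rTMS). The genes were those with a symbol starting Uqcr (8 genes, complex III), Cox4, Cox5, Cox6, Cox7 or Cox8 (17 genes, complex IV) or Atp5 (16 genes, ATP synthase). They stood for 61 of the 45588 probes that were kept, and the probe with the highest mean signal represented each gene. Probe accessions gave a symbol for 16578 genes in all, and no probe matched Cox7a1.

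Complex III passes electrons from ubiquinol to cytochrome c, and complex IV, cytochrome c oxidase, passes them on to oxygen, with protons pumped across the inner mitochondrial membrane at both steps. ATP synthase lets the protons flow back and uses them to make ATP, which neurons spend largely on ion pumping and synaptic transmission. Several complex IV subunits have a general isoform and another that is best known from a single tissue, such as heart and skeletal muscle.

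The cultures were made from hippocampi of E18 Sprague-Dawley embryos. They lay on an inverted coil and received 1 Hz stimulation, a steady train of pulses, or intermittent theta burst stimulation (iTBS), pulses in short bursts, and sham cultures stood in the incubator with the coil at a distance. RNA was taken 0, 2, 8, 24 or 48 h after the end of stimulation, and untreated control cultures were taken at 0 h only. Each of 56 one-colour arrays held 1 sample. For 1 array, replicate 2 of 1 Hz at 2 h, the scanner software reported that its spot grid had failed, and the other 55 were used. There were 4 arrays each of control, of sham at 0 and 2 h, of 1 Hz at 8 and 48 h and of iTBS at 0, 2 and 48 h, 2 of 1 Hz at 2 h, and 3 of every other group. The labels do not say whether replicates came from separate preparations, so p-values measure the spread between these samples.

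The sample numbers in the labels ran in 4 series, each of which spans the 5 times. Series C and D hold every stimulation arm and sham at each time, A and B lack some of them, and control arrays lie in A and C. The series are called A (11 arrays), B (12), C (17) and D (15, whose numbers carry a D), and the labels do not say what they are. Series A, B and C lay on different slides, and arrays of series D were spread over all 7 slides. Of the arrays used, 66.1% to 81.8% of spots were well above background, and the number of arrays limits the precision. The neuronal identity of the cultures was checked on 12 markers (among them Map2, Rbfox3, Snap25 and Syp), all of which were above background on every array. So were 9 of 10 astrocyte and 11 of 11 oligodendrocyte lineage markers. Of the microglial markers 3 of 11 were, and of the endothelial, mural and fibroblast markers 6 of 12. Most spots pass this limit, but the RNA cannot be taken as that of neurons alone. In such bulk samples, fewer cells of a type and less RNA per cell cannot be told apart.

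Levels are log2 signals scaled so that 0 marks the average probe of each array. They depend on the probe as well as the transcript, so they are compared between arrays and not between genes. Of the 41 genes, 40 were tested. Cox8c, an isoform best known from testis, was well above background on 0 of 55 arrays, and Cox8b, a heart and muscle isoform, on 11. Among the 40, 33 belonged to the brightest 10% of tested probes, so the medians and the main changes are set beside the median change of the non-member probes nearest in mean signal, called here probes of the same brightness. The very brightest members, such as Cox6a1, lie at the end of that range, where the neighbours are mostly dimmer.

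Promoter sequences from RefSeq (assembly GRCr8) were found for 34 of the 41 genes, and 3 are shown for the results that follow. Atp5me and Atp5mc2, which encode the membrane subunit e and the c-ring of ATP synthase, carry the elements usually linked with respiratory genes, and Cox6a2 is the member with the largest difference between series. Each is the 250 bases upstream of the annotated start, 5′ to 3′ on the strand of the gene, and capitals mark a motif. In Atp5me (plus strand, chr14:1464610-1464859) these are, in order, a YY1 motif, an NRF-1 motif and an ETS motif on the opposite strand, in Atp5mc2 (minus strand, chr7:135678219-135678468) an NRF-1 motif, and in Cox6a2 (minus strand, chr1:192219717-192219966) a MEF2 motif.
Atp5me: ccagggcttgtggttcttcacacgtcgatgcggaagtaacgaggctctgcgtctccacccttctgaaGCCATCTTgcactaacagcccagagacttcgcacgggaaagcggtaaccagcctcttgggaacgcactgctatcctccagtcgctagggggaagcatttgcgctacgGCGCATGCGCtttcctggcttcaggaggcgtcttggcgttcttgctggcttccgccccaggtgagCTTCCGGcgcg
Atp5mc2: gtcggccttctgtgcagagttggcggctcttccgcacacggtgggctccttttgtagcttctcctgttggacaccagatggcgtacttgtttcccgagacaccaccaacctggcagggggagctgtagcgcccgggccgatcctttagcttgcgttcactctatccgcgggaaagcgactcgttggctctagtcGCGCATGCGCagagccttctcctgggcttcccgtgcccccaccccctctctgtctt
Cox6a2: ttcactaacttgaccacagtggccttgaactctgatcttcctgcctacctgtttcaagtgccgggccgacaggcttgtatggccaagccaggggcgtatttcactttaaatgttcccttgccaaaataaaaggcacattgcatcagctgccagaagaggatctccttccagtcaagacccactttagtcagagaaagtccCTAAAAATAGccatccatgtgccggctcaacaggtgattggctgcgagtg

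The motifs were searched on both strands, and no matches overlapped in the 3 promoters shown. The NRF-1 motif (GCGC, any base, then TGCGC) was present in 4 of the 34 member promoters (Atp5mc2, Atp5me, Atp5po and Uqcrc1; 11.8%) and in 3.75% of all 33469 promoters of the same length. The ETS motif, CCGGAAG, was present in 11 (32.4%) against 7.27% of all promoters, and the YY1 motif, GCCATNTT, in 4 (Atp5f1a, Atp5me, Atp5pf and Cox7b; 11.8%) against 4.23%. The MEF2 motif (CTA, AAAA and TAG in a row), which was added to the search after the values of Cox6a2 had been seen, was present in 0.114% of all promoters and, among the members, in Cox6a2. These are matches of letters and not sites of binding.

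Mean levels over the arrays are given with their SD, each on the scale of its own probe. In complex III the core proteins and the Rieske protein had Uqcrc1 6.64 ± 0.29, Uqcrc2 6.82 ± 0.20 and Uqcrfs1 6.97 ± 0.21, and the small subunits around them Uqcrb 8.12 ± 0.32, Uqcrq 9.66 ± 0.46, Uqcrh 8.47 ± 0.30, Uqcr10 9.77 ± 0.45 and Uqcr11 8.25 ± 0.30 (n = 55, and 54 for Uqcrc2). In complex IV the isoforms of subunit 4, which takes part in regulation by ATP, had Cox4i1 9.97 ± 0.37 and Cox4i2 4.11 ± 0.41, and those of subunit 5 Cox5a 8.25 ± 0.32 and Cox5b 9.07 ± 0.37. Subunit 6 was represented by Cox6a1 10.98 ± 0.45, Cox6a2 0.92 ± 1.35, Cox6b1 2.77 ± 0.32, Cox6b2 5.62 ± 0.43, Cox6c 9.81 ± 0.51 and Cox6c-ps1 5.26 ± 0.47. Subunits 7 and 8, short proteins that span the membrane, had Cox7a2 9.22 ± 0.41, Cox7b 8.00 ± 0.33, Cox7c 5.06 ± 0.36, Cox8a 9.60 ± 0.34, Cox8b -3.38 ± 0.65 and Cox8c -4.89 ± 0.44, and the assembly partner Cox7a2l 7.98 ± 0.34.

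In ATP synthase the catalytic F1 head and its central stalk had Atp5f1a 10.63 ± 0.50, Atp5f1b 6.61 ± 0.31, Atp5f1c 7.16 ± 0.20, Atp5f1d 7.37 ± 0.28 and Atp5f1e 9.62 ± 0.37, and the c-ring Atp5mc1 8.95 ± 0.29 and Atp5mc2 9.63 ± 0.55. The peripheral stalk, which holds the head still, had Atp5pb 7.63 ± 0.17, Atp5pd 8.89 ± 0.35, Atp5pf 7.44 ± 0.26 and Atp5po 9.14 ± 0.33, and the membrane subunits Atp5me 10.10 ± 0.43, Atp5mf 7.69 ± 0.41, Atp5mg 9.30 ± 0.43 and Atp5mk 9.14 ± 0.47. The inhibitor had Atp5if1 8.43 ± 0.24. Cox6a2 had the widest SD of the 41 members.

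The study asked what each protocol changed relative to sham at the same time. None of the 40 members passed in any of the 10 comparisons (limma, Benjamini-Hochberg adjusted p under 0.05), where between 0% and 0.00555% of all 36023 tested probes passed. At an unadjusted p under 0.05 there were 13 members for iTBS at 0 h (3.96% of all probes), 3 for iTBS at 2 h (2.16%), 5 for 1 Hz at 24 h (2.31%) and 1 each for iTBS at 24 h (0.555%) and at 48 h (1.78%). The other 5 comparisons had 0 members, where 0.899% (1 Hz at 0 h), 1.12% (1 Hz at 2 h), 1.31% (1 Hz at 8 h), 0.88% (iTBS at 8 h) and 1.47% (1 Hz at 48 h) of all probes passed unadjusted. This fit had no term for the series of sample numbers, so its errors include the spread between series. With the series as a block, 0 of 40 members passed after adjustment in each comparison (share of all probes not given).

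As a group, the estimates were mostly above sham at 0 and 2 h and below it at 24 h. For iTBS at 0 h, 36 of 40 estimates were above sham (43.1% of all probes were), with a median of 0.43 on the log2 scale, against -0.05 for all tested probes and 0.26 for probes of the same brightness. This median depended on the scaling and was 0.070 with quantile normalization, 0.095 with normexp and quantile and 0.077 with centring by brightness. At 2 h of iTBS the median was 0.33 (35 of 40 above sham, 43.4% of all probes) and that of probes of the same brightness 0.25. After 1 Hz the medians were 0.24 at 0 h (32 of 40 above sham, 46.4% of all probes, same brightness 0.14) and 0.15 at 2 h (33 of 40, 49.2%, same brightness 0.09). At 24 h the order was turned, with 38 of 40 members below sham after 1 Hz (43.3% of all probes, median -0.43, same brightness -0.30) and 39 of 40 after iTBS (46% of all probes, median -0.23, same brightness -0.14). With these 3 scalings the 1 Hz median at 24 h lay between -0.12 and -0.070. The medians were -0.02 after 1 Hz and -0.19 after iTBS for samples taken at 8 h (same brightness -0.05 and -0.18), and -0.08 and 0.10 at 48 h (same brightness -0.03 and 0.13).

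Single arrays decided several of these medians. Without sham at 24 h replicate 1 the iTBS median at 24 h was -0.026, and without 1 Hz at 24 h replicate 3 that of 1 Hz was -0.20. Without 1 Hz at 8 h replicate 4 the 1 Hz median at 8 h turned to 0.021, and without iTBS at 8 h replicate 3 the iTBS median was -0.063. At 48 h the sign turned too, to 0.071 without 1 Hz replicate 1 and to -0.086 without iTBS replicate 2. The median of 1 Hz at 0 h ran from 0.15 (without sham replicate 4) to 0.31, and at 2 h from 0.070 (without sham replicate 4) to 0.25. Those of iTBS kept their sign at 0 h (0.32 to 0.53) and 2 h (0.27 to 0.41).

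**Figure D1:**
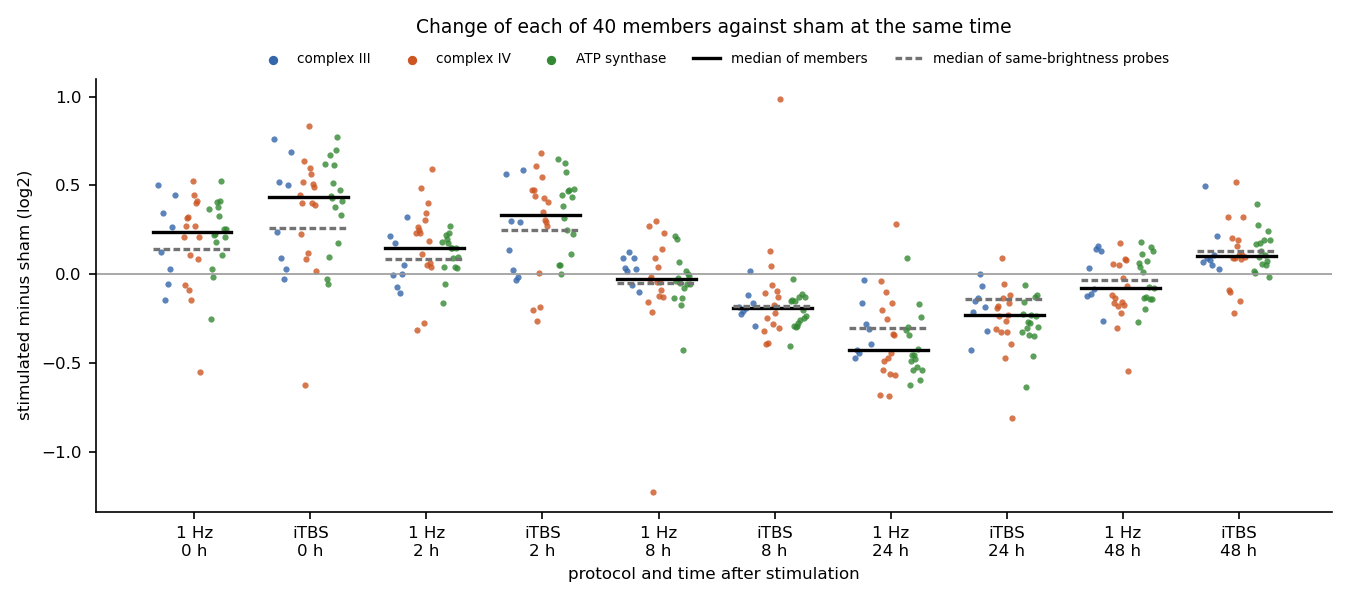
Change of each of 40 members (points, coloured by complex) in 10 comparisons with sham, as stimulated minus sham on the log2 scale, with the median of the members (solid line) and of probes of the same brightness (dashed line), before any centring by brightness. Both medians are above 0 at 0 and 2 h and below 0 at 24 h, the members' median is 0.43 for iTBS at 0 h and -0.43 for 1 Hz at 24 h, and no member passed at an adjusted p under 0.05.

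Most of that movement was shared with other bright probes. Relative to probes of the same brightness, the median difference of the members was 0.10 for iTBS at 0 h (27 of 40 above), 0.06 for iTBS at 2 h, -0.07 for 1 Hz at 24 h (12 of 40 above) and -0.07 for iTBS at 24 h (4 of 40 above). Before they were set against such probes, the medians of the 3 complexes had the same sign in these comparisons. For iTBS at 0 h they were 0.37 (complex III), 0.43 (complex IV) and 0.43 (ATP synthase), and for 1 Hz at 24 h -0.35, -0.40 and -0.45. At 2 h complex III was lower than the others, with 0.21, 0.38 and 0.41 after iTBS and 0.028, 0.23 and 0.15 after 1 Hz, differences that were not tested. Relative to probes of the same brightness, the iTBS medians at 2 h were -0.045, 0.095 and 0.054, so complex III had the opposite sign.

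The members with the smallest p of each complex were Cox6c, Uqcr10 and Atp5f1e, all for iTBS at 0 h, and none of them passed. Cox6c, a small nuclear subunit of complex IV, had levels of 11.16, 10.29, 10.16 and 10.14 after iTBS and of 9.93, 9.30, 9.83 and 9.33 in sham. The groups did not overlap, and the difference was 0.84 (SE 0.34, adjusted p = 1.00 by limma), against 0.55 for probes of the same brightness and 0.59 without iTBS replicate 1. Uqcr10, a small subunit of complex III, gave 11.01, 10.22, 10.04 and 9.85 after iTBS and 9.80, 9.26, 9.73 and 9.30 in sham. Here too the groups were apart, with a difference of 0.76 (SE 0.31, adjusted p = 1.00 by limma, same brightness 0.55). Atp5f1e, the epsilon subunit of the catalytic F1 part of ATP synthase, gave 10.76, 10.04, 9.65 and 10.18 after iTBS and 9.58, 9.42, 9.67 and 9.27 in sham, so that 1 iTBS array fell within the sham range. Its difference was 0.67 (SE 0.24, adjusted p = 1.00 by limma, same brightness 0.54).

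Atp5if1 encodes the inhibitor that stops ATP synthase from running backwards when the proton gradient collapses. At 0 h it lay at 8.28, 8.38, 8.32 and 8.25 in sham and at 9.03, 8.67, 8.44 and 8.86 after iTBS. At 24 h it lay at 8.999, 8.63 and 8.62 in sham, at 8.36, 8.22 and 8.21 after 1 Hz and at 8.42, 8.40 and 8.51 after iTBS. Stimulated arrays were thus all above sham at 0 h and all below it at 24 h, the direction of the whole block. All the differences, 0.44 (SE 0.16) for iTBS at 0 h, -0.49 (SE 0.18) for 1 Hz and -0.30 (SE 0.18) for iTBS at 24 h, did not pass (adjusted p = 1.00 by limma in each).

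**Figure D2:**
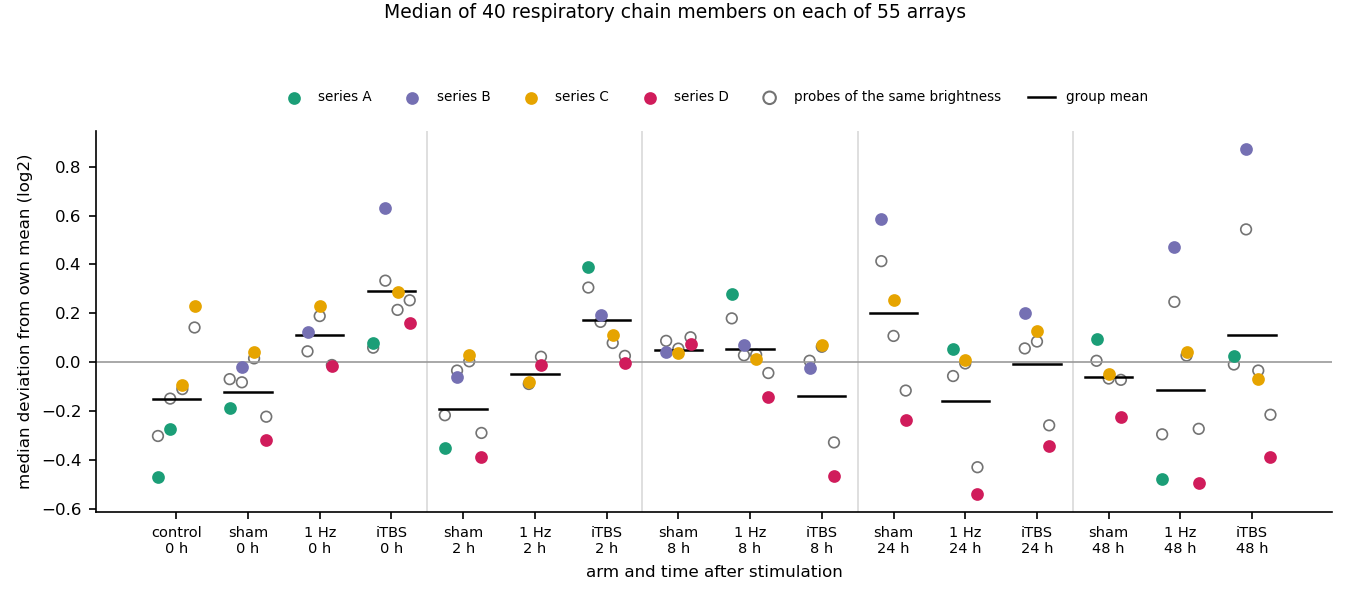
Median over 40 members of the deviation from each member's own mean (log2, filled points coloured by series) on each of 55 arrays, by arm and time, with the group mean (line) and the median of probes of the same brightness on the same array (open circles). The highest array, of iTBS at 48 h, stands at 0.87 and the lowest, of 1 Hz at 24 h, at -0.54, and the open circles follow the filled points.

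Single arrays varied as much as groups. The median deviation of the members from their own means ran from -0.54 (1 Hz at 24 h replicate 3) to 0.87 (iTBS at 48 h replicate 2), and within groups its SD was 0.29. Some of the extreme arrays were also dim or bright. The 75th percentile of the processed signal was 1999 intensity units on the highest of these arrays and 9939 on the lowest, and the brightest array, 1 Hz at 48 h replicate 1 at 18416, had a median of -0.48. The median 75th percentiles of series A, B, C and D were 4643, 3708, 5112 and 5470. Their median deviations were 0.03, 0.16, 0.04 and -0.24 in the same order. The part of array brightness in the differences between groups was not tested. When each stimulated array was set against the sham array of its own series and time, the members' median was higher in 4 of 4 pairs for iTBS at 0 h (0.28 to 0.74), in 3 of 3 pairs for 1 Hz at 0 h (0.19 to 0.35) and in 4 of 4 for iTBS at 2 h (0.07 to 0.56). It was lower in 3 of 3 pairs for iTBS at 24 h (-0.50 to -0.15) and in 2 of 2 for 1 Hz at 24 h (-0.31 and -0.27). In the other comparisons it was higher in 1 of 2 pairs for 1 Hz at 2 h (-0.11 and 0.43), 1 of 3 for iTBS at 8 h and 1 of 3 for 1 Hz at 48 h. It was higher in 0 of 3 pairs for 1 Hz at 8 h, whose group median was -0.02. For iTBS at 48 h it was higher in 0 of 3 pairs, against a group median of 0.10. Beyond probes of the same brightness, the differences of all pairs were at most 0.15 above and 0.12 below. The members stood above such probes in 3 of 4 iTBS pairs at 0 h and 3 of 4 at 2 h, in 2 of 3 and 1 of 2 pairs of 1 Hz at these times, and in 0 of 3 iTBS and 0 of 2 pairs of 1 Hz at 24 h. At 8 h it was 2 of 3 for either protocol, and at 48 h 0 of 3 for iTBS and 1 of 3 for 1 Hz. Arrays of 1 Hz and iTBS share the same sham arrays.

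No member passed between untreated control and sham cultures at 0 h (0 of 40, where 0.00278% of all probes passed). None had an unadjusted p under 0.05, and the median difference, control minus sham, was -0.05 (0.054 without control replicate 1). The smallest p of each complex belonged to Uqcrc2, a core subunit of complex III (0.24, SE 0.16), Cox4i2 (-0.33, SE 0.30) and Atp5f1c, the gamma subunit of ATP synthase (0.22, SE 0.16), with adjusted p = 1.00 by limma in each. Without control replicate 1 that of Uqcrc2 was 0.11 and that of Atp5f1c 0.13. One array, 1 Hz at 48 h replicate 1, had no usable spot for Uqcrc2 and was dropped from the fit of that gene.

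The protocols themselves were also set against each other. Again 0 of 40 members passed at any of the 5 times (0% to 0.00555% of all probes), and the median of iTBS minus 1 Hz ran from -0.19 (8 h) to 0.22 (0 h). Probes of the same brightness had -0.14 and 0.15 at these times. Without iTBS at 8 h replicate 3 the median at 8 h was 0.0028, and without iTBS at 0 h replicate 1 that at 0 h was 0.041. Uqcr11 at 48 h (0.47, SE 0.22), Atp5f1e at 0 h (0.45, SE 0.26) and Cox8b at 24 h (-1.10, SE 0.52, near background) had the smallest p, and none passed (adjusted p = 1.00 by limma in each). Uqcr11 was at 0.17 without iTBS at 48 h replicate 2, Atp5f1e at 0.25 without iTBS at 0 h replicate 1, and Cox8b ran from -1.71 to -0.73. F tests of whether the difference from sham varied between times passed for 0 of 40 members and 0% of all probes for either protocol.

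Averaged over the arms and relative to 0 h, 0 of 40 members passed after 2 h (0% of all probes), 8 h (0.217%), 24 h (3.8%) or 48 h (10.8%). The median changes were -0.14, -0.13, -0.10 and -0.15 (same brightness -0.07, -0.04, -0.07 and -0.08; -0.026 at 24 h without sham replicate 3, -0.085 at 8 h without iTBS replicate 3, and -0.24 and -0.091 at 48 h without iTBS replicates 2 and 4 in turn), and 34 of 40 members were below their 0 h level at 48 h (54.3% of all probes were). Atp5mk, a small membrane subunit of ATP synthase, averaged 9.40 ± 0.52 (SD, n = 11) at the start and 8.99 ± 0.59 (SD, n = 11) by 48 h in sham and stimulated cultures, a difference of -0.42 (SE 0.20, adjusted p = 0.17 by limma). Uqcrh, the hinge protein of complex III that docks cytochrome c1, changed by -0.20 at 2 h (SE 0.14, adjusted p = 1.00 by limma). With the series as a block, 4 member changes passed: Cox6a2 at 24 and 48 h, and at 48 h Cox5a (adjusted p = 0.037) and Cox7c (adjusted p = 0.050), whose changes were -0.33 (SE 0.14) and -0.31 (SE 0.16) without the block. The share of all probes that passed with this block is not given, so the count is no result about the members.

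Cox6a2 had the largest change with time of the 40 members in either direction. It encodes the heart and skeletal muscle isoform of subunit 6a of complex IV, of which Cox6a1 is the general isoform. In series D its brighter probe read 1.76, 2.11 and 0.19 right after stimulation (sham, 1 Hz and iTBS in this order), 1.94, 2.09 and 2.03 at 2 h, and 1.90, 1.57 and 2.39 at 8 h. It then read 3.36, 3.32 and 3.51 at 24 h and 4.28, 3.89 and 4.00 at 48 h. All 6 late arrays of Cox6a2 were above all 9 early ones, in sham as in stimulated cultures. Series C ranged from -0.38 to 0.24 at 0 h and from 1.34 to 1.54 at 48 h. Series B ranged from -0.04 to 0.20 and from 0.98 to 1.06, and series A from 0.34 to 0.67 and from 0.83 to 1.51. In each of the 4 series, no array at 48 h overlapped with one at 0 h.

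Over all series the change of Cox6a2 at 48 h was 1.54 (SE 0.55, adjusted p = 0.061 by limma), and with the series as a block 1.58 (adjusted p = 4.6e-05). At 24 h it was 1.02 (SE 0.58, adjusted p = 0.37, and 0.031 with the block). Fitted within the series, the 48 h change was 2.70 (SE 0.27) in D, 1.54 (SE 0.25) in C, 0.95 (SE 0.30) in B and 0.68 (SE 0.27) in A. The change in D exceeded the mean of the other 3 by 1.64 (SE 0.31, adjusted p = 5.5e-04 by limma), a test added after the values were seen, in which 7 of 40 members and 15.5% of all probes passed. At 24 h the excess was 1.66 (adjusted p = 0.0014), where 1 of 40 members and 6.56% of all probes passed. At 48 h the difference from sham in Cox6a2 was -0.18 after 1 Hz and -0.22 after iTBS (SE 0.98 in each, adjusted p = 1.00 by limma). These errors are of the fit without series, include the spread between series and leave room for a change of either sign. With the series as a block neither passed (adjusted p = 0.99 in each by limma). Within series, sham, 1 Hz and iTBS read 4.28, 3.89 and 4.00 in D and 1.34, 1.51 and 1.54 in C. In A they read 0.83, 1.51 and 1.12, and B had no sham array at 48 h. Stimulated arrays were thus below sham in D and above it in C and A.

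The second probe of Cox6a2 lay within 0.77 of the first on all but 2 arrays. In series D it read 1.44 to 1.76 at 0 h, 3.02 to 3.28 at 24 h and 3.59 to 3.91 at 48 h. On 1 Hz at 8 h replicate 1 the first probe of Cox6a2 was at -3.53 and the second at 0.43, and on iTBS at 0 h replicate 4 they were at 0.19 and 1.68. Those 2 arrays account for the low point in series A and the low iTBS value in series D. Without them the 48 h change passed over all series (1.56, adjusted p = 0.048 by limma), and the excess in series D was 1.07 (adjusted p = 0.0051). With the second probe in its place, the 48 h change was 1.33 (adjusted p = 0.082) and the excess in series D 1.096 (adjusted p = 0.0067).

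**Figure D3:**
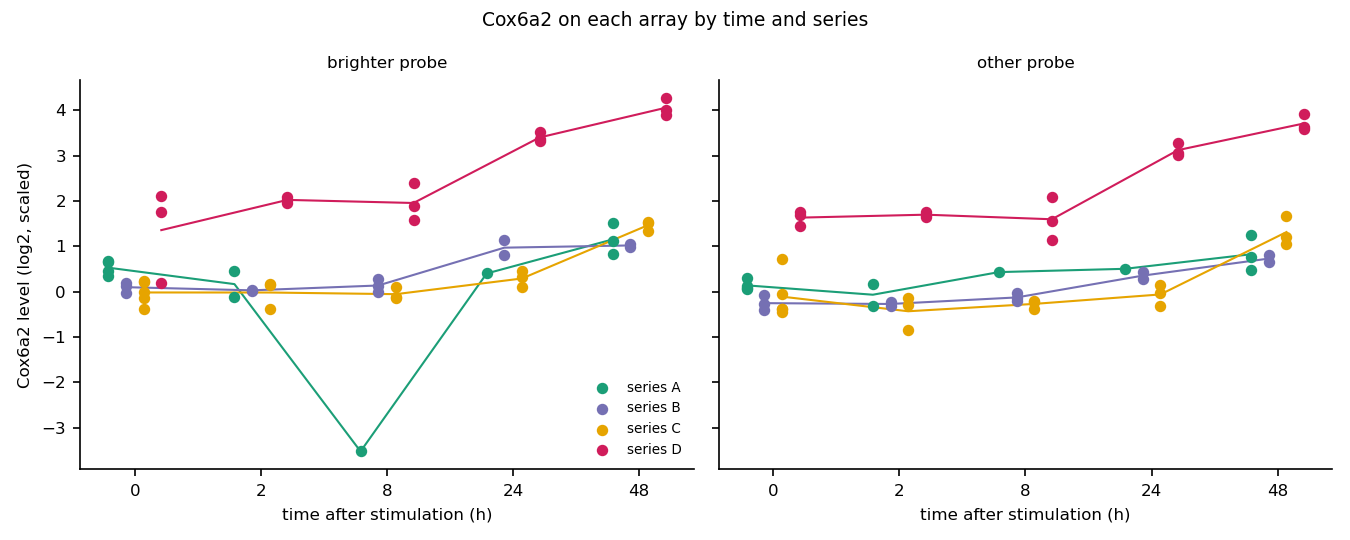
Level of Cox6a2 (scaled log2) on each of 55 arrays against time after stimulation for its 2 probes, coloured by series, with lines through the series means. The mean of series D lies above those of the others at each time and its arrays reach 3.89 to 4.28 at 48 h on the brighter probe, and 2 arrays read low on that probe alone.

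Most members, like most probes, differed between the series. In a fit of group and series, 33 of 40 members (82.5%) passed the F test for series, where 75.3% of all tested probes did. These shares are near each other, and the count is no result about the members. The 7 that did not were Uqcr11, Uqcrc2, Uqcrfs1, Cox6b2, Atp5f1d, Atp5if1 and Atp5f1c. Series D was set against A, B and C together, and since D had arrays on every slide this contrast can also be read within slides.

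In series D 32 of 40 members passed, where 53% of all probes did. Of these, 30 were lower, where 24.2% of all probes were called lower, and 2 were higher, where 28.8% were called higher. The median change was -0.34, against 0.03 for all tested probes and -0.17 for probes of the same brightness, and 32 of 40 members stood below such probes. The medians of the complexes were -0.26 for complex III (6 of 8 called lower), -0.36 for complex IV (12 of 16 called lower, 2 higher) and -0.33 for ATP synthase (12 of 16 called lower). With the slide as a block 30 members passed (share of all probes not given). The members' median, not adjusted for time, was lower in D than in the other arrays on 6 of 7 slides. The summed oligodendrocyte lineage markers ran from 7.24 to 9.10 in series D and from 9.62 to 11.43 in the others, and 9 of 11 were called lower. Of the markers of endothelial, mural and fibroblast cells, 8 of 12 were called higher (summed level 8.35 to 9.22 in D, 4.96 to 6.93 elsewhere), as were 9 of 12 neuronal markers. Of the astrocyte markers 3 were called higher and 5 lower of 10, and of the microglial 6 and 3 of 11. The part of cell composition in the members' difference was not tested.

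**Figure D4:**
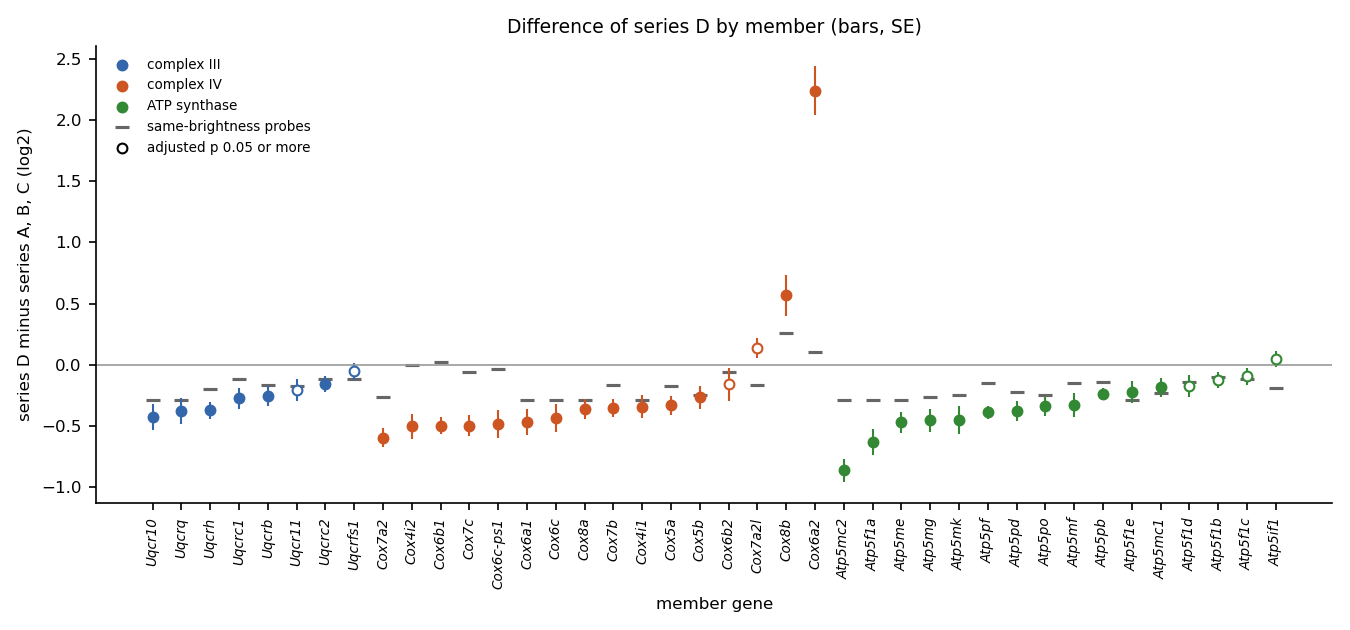
Series D minus the mean of series A, B and C (log2, with SE) for each of 40 members, grouped by complex, with the change of probes of the same brightness as a dash. Filled points passed at an adjusted p under 0.05. Most points lie between -0.6 and 0, Atp5mc2 is at -0.86, and Cox6a2 at 2.24 stands alone.

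Atp5mc2, one of the genes for the proton-carrying c-ring, ranged from 8.59 to 9.45 in D (median 9.07) and from 8.69 to 10.81 over the other series, where the medians were 9.66 in A, 10.02 in B and 9.95 in C. The ranges of D and B did not overlap, nor did those of D and C. The difference was -0.86 (SE 0.10, adjusted p = 7.9e-10 by limma), and that of probes of the same brightness -0.29. The other 3 probes of Atp5mc2 were lower too. Atp5pf, coupling factor 6 of the peripheral stalk, had medians of 7.45 in A, 7.65 in B, 7.56 in C and 7.16 in D (range in D 6.91 to 7.41), and all 15 arrays of D lay below the mean of the others, a difference of -0.39 (SE 0.06, adjusted p = 1.6e-07 by limma). In the catalytic head, Atp5f1a, the alpha subunit, was lower by a fitted -0.63 (SE 0.11) and passed, whereas Atp5f1b, Atp5f1c and Atp5f1d, the beta, gamma and delta subunits, had -0.12 (SE 0.07), -0.095 (SE 0.07) and -0.17 (SE 0.09) and did not. Atp5if1 had 0.05 (SE 0.07) and did not pass either. Atp5f1e (-0.22) and Atp5mc1 (-0.19) passed but were not below probes of the same brightness. The remaining stalk and membrane subunits, Atp5pb, Atp5pd, Atp5po, Atp5me, Atp5mf, Atp5mg and Atp5mk, passed with changes from -0.47 (Atp5me) to -0.24 (Atp5pb).

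Uqcrh had medians of 8.53 in A, 8.72 in B, 8.51 in C and 8.20 in D, with 14 of 15 arrays of D below the mean of the others, and the difference was -0.37 (SE 0.07, adjusted p = 9.4e-06 by limma). Uqcr10 had medians of 9.70, 10.05, 9.78 and 9.60, and its difference was -0.42 (SE 0.11, adjusted p = 9.0e-04 by limma), with ranges that overlapped. Uqcrq (-0.38), Uqcrb (-0.25) and the core protein Uqcrc1 (-0.27) passed, as did the other core protein Uqcrc2 (-0.16, adjusted p = 0.040). Uqcrfs1, the Rieske iron-sulfur protein that carries electrons towards cytochrome c1, had -0.05 (SE 0.07) and did not pass, nor did Uqcr11 (-0.20, SE 0.09).

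In complex IV, Cox7a2, the general isoform of subunit 7a, ranged from 8.50 to 9.24 in D, with a median of 8.70, against medians of 9.13 in A, 9.57 in B and 9.33 in C. Its difference was -0.59 (SE 0.08, adjusted p = 4.0e-08 by limma), and its second probe was lower too. The related Cox7a2l, which joins complex III and complex IV in supercomplexes, had 0.14 (SE 0.08) and did not pass. The isoforms of subunit 4 were lower together, with -0.34 (SE 0.09) for Cox4i1, the general isoform, and -0.50 (SE 0.10) for Cox4i2, the isoform best known from lung and from low oxygen. Of subunit 6b, Cox6b1 was lower by a fitted -0.50 (SE 0.07) and Cox6b2, best known from testis, had -0.16 (SE 0.13) and did not pass. Of subunit 8, Cox8a was at -0.36 (SE 0.08), and Cox8b at 0.57 (SE 0.17, adjusted p = 0.0044 by limma) with levels close to background. Cox8b was well above background on 11 of 55 arrays, and its mean was -2.94 in D, -3.17 in A, -3.77 in B and -3.62 in C. Cox5a (-0.33), Cox5b (-0.27), Cox6c (-0.43), its transcribed pseudogene Cox6c-ps1 (-0.48), Cox7b (-0.35) and Cox7c (-0.50) passed. Cox6c and its pseudogene are close in sequence, and whether their probes tell them apart was not tested.

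The isoforms of subunit 6a parted. Cox6a1 had medians of 10.84 in A, 11.26 in B, 11.04 in C and 10.69 in D and a difference of -0.47 (SE 0.11, adjusted p = 3.4e-04 by limma). Cox6a2 had medians of 0.46, 0.16, 0.15 and 2.11 and a difference of 2.24 (SE 0.20, adjusted p = 2.6e-12 by limma). With the second probe it was 2.19 (adjusted p = 2.8e-17), with the slide as a block 2.11, and on all 7 slides the arrays of D had the higher mean (by 1.03 to 3.43 on the log2 scale). The slide means were not adjusted for time, and on some slides the arrays of D were from later times than the others.

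Series A and B differed from each other in 22 of 40 members (30.4% of all probes), of which 21 were lower in A (13.7% of all probes) and 1 higher (16.7%). The median was -0.30, with -0.15 for probes of the same brightness, and 12 members passed with quantile normalization or centring by brightness (share of all probes not given). Markers differed in the same contrast: 7 of 12 neuronal markers were called higher in A, 6 of 11 oligodendrocyte lineage markers lower, 4 of 10 astrocyte markers lower, and 6 of 11 microglial markers higher and 3 lower. Of the endothelial, mural and fibroblast markers 3 of 12 were higher and 1 lower. The part of cell composition in the difference was not tested. Atp5me (-0.62, SE 0.13), Uqcrq (-0.63, SE 0.16), Uqcrb (-0.41, SE 0.12), Cox7b (-0.50, SE 0.10) and Cox6c (-0.64, SE 0.17) were lower in A (adjusted p between 3.0e-04 and 0.0068 by limma). Atp5f1b, the catalytic beta subunit, was the exception at 0.50 (SE 0.09, adjusted p = 9.85e-05 by limma). Its levels ran from 6.85 to 7.45 in A (median 6.96), from 6.25 to 7.05 in B (6.58), from 6.08 to 6.76 in C (6.43) and from 6.14 to 6.90 in D (6.58), so A and C did not overlap. Series A and B lay on different slides. With the slide as a block they are linked through series D alone, which had 2 arrays on each of these slides. In that fit 0 of 40 members passed. The parts of slide and series in the difference were not tested.

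Series C differed from A and B in 4 members (40% of all probes), 2 of them higher (20.2%) and 2 lower (19.8%). Atp5f1b was lower (-0.40, SE 0.07, adjusted p = 9.2e-06), as was Cox7c (-0.23, SE 0.09, adjusted p = 0.033), and Cox6b1 (0.22, SE 0.07, adjusted p = 0.014) and Cox7a2l (0.25, SE 0.09, adjusted p = 0.018, all by limma) were higher. This contrast too runs between slides. With the slide as a block Cox7c turned to 0.26, and its call was lost in 5 of 55 fits that left out 1 array. The count rose to 9 with quantile normalization, 12 with normexp, 11 with centring by brightness, 7 with the deposited z-scores and 8 with the slide as a block, and was 3 to 7 when 1 array was left out (3 without sham at 0 h replicate 3, 7 without control replicate 4). The shares of all probes in these fits are not given. In this contrast 7 of 12 neuronal markers were called lower and 6 of 11 oligodendrocyte lineage markers higher, with 6 of 11 microglial markers lower and 1 higher, 4 of 10 astrocyte markers higher and 2 lower, and 5 of 12 endothelial, mural and fibroblast markers higher and 2 lower. Their part in the difference was not tested.

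Genes around the 3 complexes were read in series D from lists that were chosen by function, where 24.2% of all probes were called lower and 28.8% higher. Of 7 other subunits, 6 were called lower and 0 higher: Cyc1, the cytochrome c1 of complex III (-0.48, SE 0.07), Ndufa4, a subunit now placed in complex IV (-0.30, SE 0.07), and the 4 subunits of succinate dehydrogenase, Sdha, Sdhb, Sdhc and Sdhd (-0.49 to -0.16). The seventh, cytochrome c itself (Cycs), had -0.20 (SE 0.09, adjusted p = 0.065 by limma). Of the citric acid cycle and pyruvate dehydrogenase, 6 of 16 tested genes were lower (among them Cs, citrate synthase, at -0.32) and 0 higher. Of carriers and porins 7 of 13 were lower and 2 higher. Among them were the phosphate carrier Slc25a3 (-0.55) and the neuronal and muscle ADP/ATP carrier Slc25a4 (0.23). Slc25a5, the widely expressed relative of Slc25a4, had -0.39. The median of the other subunits was -0.30 (same brightness -0.11), of the citric acid cycle -0.11 (-0.05) and of the carriers and porins -0.18 (-0.15). Of assembly factors, 2 of 6 for complex III, 6 of 18 for complex IV and 1 of 5 for ATP synthase were lower, and 1, 2 and 1 were higher. The shares called lower in these lists, the citric acid cycle and the regulators lie near that of all probes and are no result about the lists. The shares called higher were below the 28.8% of all probes, with 0 of 16 for the citric acid cycle and 1 of 11 for the regulators. Whether these shares differ from that of all probes was not tested. Of 11 regulators 4 were lower, with Nrf1 at -0.70 (SE 0.11), Tfam, the activator of mitochondrial transcription, at -0.25 (SE 0.05), Esrra at -0.27 and Polrmt at -0.24, and Yy1 at 0.43 (SE 0.08) was higher. No gene of these lists passed in any comparison with sham.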

How the data were processed

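RNA of 56 samples was hybridized singly to Agilent SurePrint G3 Rat 8x60K arrays (Cy3). The authors extracted intensities with Agilent Feature Extraction 12.0.3.1, and the deposited processed signal is a background-corrected intensity without normalization between arrays. A table of z-scores, a score that the authors computed within each array, was deposited too and served as an alternative.

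From the scanner files, log2 signals of noncontrol spots were averaged by probe without outlier spots, and 10 probes missing on more than 1 of 55 arrays were dropped. After the methods of the study, values were made z-scores within each array and multiplied by the median SD, 4.06. Probes well above background on fewer than 3 arrays were not tested, which left 36023. Symbols came from a RefSeq table (GRCr8; the files name rn4) through the accession, for 46.3% of 45598 probes, and GRCr8 coordinates belong to the promoter table alone.

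Groups were fitted with limma 3.58.1 in R 4.3.3 (lmFit, eBayes, two-sided, no covariate, or group plus series), adjusted over all tested probes by Benjamini-Hochberg. The code was tested on simulated data. Named were all members that passed where at most 10 did, otherwise the 2 per complex with the smallest p, where none passed the smallest p of each complex, besides isoform pairs, Atp5if1, Cyc1, Ndufa4 and Cycs, and every member with its level; other names were chosen after values were seen. The members and lists were chosen with earlier results of these data known. Alternatives were scaling, background correction, filters, blocks, left-out arrays and mean probes per gene. The normexp correction used median foreground signals with an offset of 50, since the files used here hold no mean signal.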

Additional observations from a re-analysis of the deposited data

Results flagged for a closer look

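Groups of 4 arrays were searched for an array far from the other 3 in 184 sets of values of the members named by the rule and of the members' median, and 12 were found (6.52%), where chance gives about 1 in 20. In sham at 0 h these were Cox7a2l (7.22, replicate 2), Uqcr11 (8.50, replicate 2) and Cox8b (-2.22, replicate 4). In 1 Hz at 48 h they were Atp5f1b (7.30, replicate 1) and Atp5f1c (6.63, replicate 4), and in 1 Hz at 8 h Cox7c (6.08, replicate 1). In iTBS at 0 h they were Cox6c (11.16) and Atp5mk (10.57), both on replicate 1, the array of series B. In iTBS at 2 h replicate 4, an array of series D, they were Uqcrb (8.12), Atp5mc2 (9.18) and Cox6a2 (2.03), and in iTBS at 48 h replicate 4, also of series D, Cox6a2 (4.00).

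The change from 0 to 48 h differed between series D and the other series (test of the difference, limma, adjusted p under 0.05) in 7 of 40 members, where 15.5% of all probes did. Cox6a2 rose more in D, by 1.64. The other 6 had a difference below 0: Uqcrfs1 (-0.47), Cox4i2 (-0.85), Cox6b1 (-0.67), Cox6b2 (-1.05), Cox6c-ps1 (-0.93) and Cox7c (-0.86). Without iTBS at 0 h replicate 4, 3 members passed. At 24 h Cox6a2 passed among the members, where 6.56% of all probes did.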

How the results depend on the processing

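No member passed against sham under any alternative that used the 55 arrays or fewer. The medians of iTBS at 0 h and 1 Hz at 24 h against sham shrank to 0.070 and -0.12 with quantile normalization, to 0.095 and -0.080 with normexp and quantile, and to 0.077 and -0.070 with centring by brightness. With those 3 scalings, A against B gave 12 (quantile) and 12 (brightness) member calls, and C against A and B gave 9, 12 and 11, with 7 from the deposited z-scores. Quantile normalization left 21 calls in series D. With the slide as a block there were 0 calls for A against B and 8 for C, and Cox7c in C was 0.26. Against 0 h there were 2 calls with normexp, 1 with brightness centring, 4 with a series block, 1 without the 2 arrays on which the Cox6a2 probes disagreed and 1 without series D. Without those 2 arrays 3 members kept a call for the difference of the 48 h change in D. For the alternatives named here and below, the share of all probes is not given, so a change in a count is no result about the members.

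Arrays with the same replicate number had a mean correlation of deviations of 0.160 (lowest -0.46), against -0.056 with different numbers. Within a series it was 0.40, and between series -0.13. The replicate numbers were not treated as pairs in the main fits. With the replicate number as a block, 2 member changes against 0 h and 26 differences in series D passed.

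With all 56 arrays, the array with the failed grid gave 34 calls against sham and 32 between protocols, with medians of -3.23 (1 Hz at 2 h), 3.42 (iTBS minus 1 Hz at 2 h) and -1.18 (2 h against 0 h). Calls were then 6 for the series F test, 1 for A against B (median -0.93), 0 for C (median 0.48), 5 for D (median 0.034) and 1 for the 48 h difference, and Atp5f1b was -0.14 (A against B) and 0.058 (C) and Uqcr10 0.031 in D.

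Leaving out 1 array at a time gave 0 calls against sham, 0 to 2 against 0 h, 16 to 24 for A against B, 3 to 7 for C, 29 to 34 for D and 3 to 8 for the 48 h difference, lowest without iTBS at 0 h replicate 4. The 48 h change of Cox6a2 ran from 1.19 to 1.79 (adjusted p from 0.036 to 0.19). The cause of these shifts was not tested. Under the other alternatives, 751 values were counted as kept and 75 were not. For this, single genes had to keep direction and call, and counts of calls had to stay of similar size. Medians had to stay within 0.29 of the main value, whatever their sign. Cox8b was well above background on 11 arrays, which limits its values.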

Other observations

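Pvalb, which encodes the calcium-binding protein of fast-spiking interneurons and fast muscle fibres, was looked up after the values of Cox6a2 had been seen. In series D it ran from 0.49 to 1.10 at 0 h, from 1.83 to 1.96 at 24 h and from 1.36 to 2.36 at 48 h. In series C it ran from -1.23 to -0.94 at 0 h and from 0.92 to 1.13 at 48 h, in B from -1.86 to -1.78 and from -0.82 to -0.77, and in A from -3.07 to -2.35 and from -1.91 to -0.29. Within each of the 4 series, Pvalb was thus higher on every 48 h array than on any 0 h array, as Cox6a2 was. Its difference in series D was 2.67 (SE 0.11) and its change at 48 h over all series 1.43. Both were chosen by their values, and no relation between them was tested.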
